A study of Homo sapiens with 19 samples.

Results

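The EGF-only sites of SKBr3 cells are the regions where an ERRα peak was called after EGF and none was called after vehicle or heregulin (HRG). SKBr3 is a human breast cancer cell line in which the HER2 receptor gene is amplified. The sites were selected on the peak calls themselves. The vehicle, EGF and HRG peaks of SKBr3 cells were joined wherever they overlapped, 1 bp being enough, and joined regions with an EGF peak and neither of the other peaks were kept. This gave 5536 of 55998 sites (9.89%, 95% Wilson interval 9.64–10.1%), and these sites held 17.0% of the 32567 EGF peaks. Each of them held 1 EGF peak.

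ERRα binding was mapped by chromatin immunoprecipitation and sequencing (ChIP-seq) in 13 ChIP and 6 input libraries, from which the authors deposited 8 peak lists. SKBr3 cells, and BT-474 cells as another HER2-amplified line, went 24 h without serum and then received EGF or HRG, or vehicle, for 90 min. The growth factor dose is given by the study as 100 μM, which is high for a growth factor and could not be checked from the files. The other lists came from untreated pSKBr3 cells, the parental line of the resistance experiment, and from LRSKBr3 cells, which grow in 2 μM lapatinib, an inhibitor of EGFR and HER2. The SKBr3, pSKBr3 and LRSKBr3 lists each pool 2 ChIP libraries against 1 input. Each BT-474 list rests on 1 ChIP library, and the only BT-474 input is of vehicle cells. All libraries are from established cell lines, and LRSKBr3 is a single selected line.

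The lists held between 22539 (pSKBr3) and 41271 peaks (BT-474, HRG), and the SKBr3 lists 32183 (vehicle), 32567 (EGF) and 37195 peaks (HRG). No list held tag counts, so the depth behind a peak is unknown, and because replicates were pooled there is no spread from which a treatment could be tested. Each peak carries a score, which the peak caller computes as 10 times the negative log10 of its P value and which starts at 50. An absent peak means that none was called at this cutoff, not that ERRα was absent. Shares are given with 95% Wilson intervals and differences between shares with Newcombe intervals. Both cover counting error only.

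ERRα is an orphan nuclear receptor that drives genes of mitochondrial energy metabolism together with coactivators of the PGC-1 family. It binds DNA at the ERR response element (ERRE), an extended nuclear receptor site that a monomer or dimer of the receptor can occupy. EGF signals through EGFR and its partner HER2, and HRG through HER3 and HER2. Both routes feed the RAS–ERK cascade, which induces and phosphorylates the Jun and Fos proteins. Dimers of Jun and Fos form AP-1, a transcription factor complex with its own DNA site.

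The words sought were TCAAGGTCA for the ERRE and TGACTCA for AP-1, on both strands, in the 201 bases centred on each EGF peak of GRCh37. On the other strand these words read TGACCTTGA and TGAGTCA. At sites without an EGF peak, the window was centred on the HRG peak or, without one, on the vehicle peak. The ERRE and AP-1 words share the letters TCA at an end, so that their matches can overlap by up to 3 bases. The sequences shown are of the plus strand, with both kinds of word in capitals. SLC9A9 (chr3:143549058-143549258, intron), TPST2 (chr22:27002758-27002958, within an intron of CRYBB1), SERP2 (chr13:44873378-44873578, intergenic) and MEF2A (chr15:100012694-100012894, intergenic) are named for the nearest gene and were the strongest EGF-only sites that held both words. NRP1 (chr10:33445050-33445250, intergenic) and REEP3 (chr10:65467191-65467391, intergenic) were the strongest sites with an AP-1 word, and hold 2 and 4 of them. LRIG3 (chr12:59316683-59316883, intergenic) and EHF (chr11:34666408-34666608, intron) show a site with either word beside a gene of the pathway lists, and were picked after their values were seen.
SLC9A9: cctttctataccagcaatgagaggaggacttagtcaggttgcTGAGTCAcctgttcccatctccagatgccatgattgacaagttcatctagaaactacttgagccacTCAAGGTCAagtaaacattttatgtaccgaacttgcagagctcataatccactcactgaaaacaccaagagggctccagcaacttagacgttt
TPST2: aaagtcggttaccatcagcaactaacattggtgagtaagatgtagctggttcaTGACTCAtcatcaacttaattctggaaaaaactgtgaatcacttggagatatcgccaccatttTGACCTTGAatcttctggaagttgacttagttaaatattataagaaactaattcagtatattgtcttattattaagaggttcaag
SERP2: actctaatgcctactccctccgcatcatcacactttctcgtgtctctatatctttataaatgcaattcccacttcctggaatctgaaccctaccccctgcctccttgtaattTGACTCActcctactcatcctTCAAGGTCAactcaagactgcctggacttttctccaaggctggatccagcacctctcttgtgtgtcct
MEF2A: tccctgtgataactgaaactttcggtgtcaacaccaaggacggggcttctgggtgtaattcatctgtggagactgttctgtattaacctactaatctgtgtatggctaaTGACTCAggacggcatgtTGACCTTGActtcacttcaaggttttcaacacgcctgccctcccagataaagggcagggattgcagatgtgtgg
NRP1: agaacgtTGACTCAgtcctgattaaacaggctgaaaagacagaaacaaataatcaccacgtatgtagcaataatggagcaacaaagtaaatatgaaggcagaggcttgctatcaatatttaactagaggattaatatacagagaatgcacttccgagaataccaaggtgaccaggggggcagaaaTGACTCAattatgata
REEP3: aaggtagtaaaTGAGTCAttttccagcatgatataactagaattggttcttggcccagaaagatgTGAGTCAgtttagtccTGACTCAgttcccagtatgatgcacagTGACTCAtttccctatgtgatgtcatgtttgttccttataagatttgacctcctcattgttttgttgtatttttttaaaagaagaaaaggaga
LRIG3: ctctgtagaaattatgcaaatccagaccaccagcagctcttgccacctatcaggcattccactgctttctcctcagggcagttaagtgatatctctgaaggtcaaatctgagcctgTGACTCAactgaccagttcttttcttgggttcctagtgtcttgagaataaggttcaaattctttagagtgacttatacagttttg
EHF: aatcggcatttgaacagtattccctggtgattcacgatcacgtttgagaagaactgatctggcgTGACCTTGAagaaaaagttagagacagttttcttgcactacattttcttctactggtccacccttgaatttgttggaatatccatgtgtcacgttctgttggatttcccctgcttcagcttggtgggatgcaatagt

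The EGF-only sites were weak members of the EGF list. Their EGF scores ran from 50.01 to 2093.93, with a median of 73.4 and quartiles of 58.9 and 103. The median EGF score was 116 at sites shared by EGF and HRG, 98.2 at sites shared by vehicle and EGF, and 326 at sites common to the 3 lists. Sites of the other single lists were also weak. The median percentile in the own list was 20.5 for EGF-only, 23.9 for vehicle-only and 28.5 for HRG-only sites. Of the EGF-only sites, 3232 lay in the weakest of 4 equal score bins of the EGF list, 1707 in the next, 561 in the third and 36 in the strongest. A score of at least 100 was reached by 1499 sites (27.1%), and 1517 (27.4%) scored under 60. Their median width was 1184 bp, and 371 were wider than 3 kb.

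**Figure D1:**
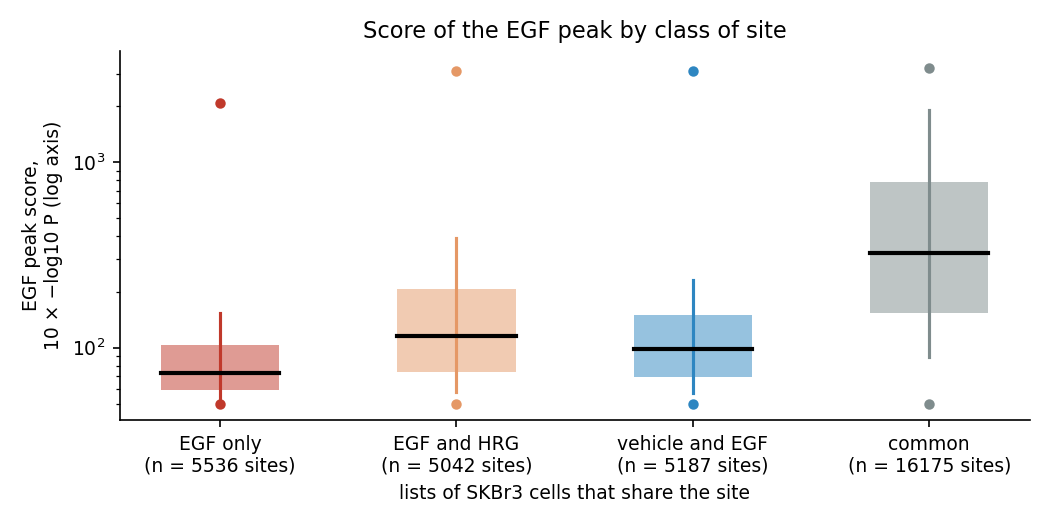
Score of the EGF peak (10 × −log10 P, log axis) at sites called in the EGF list, by the SKBr3 lists that share the site. Boxes span the quartiles, black lines are medians, vertical lines run from the first to the ninth decile and points mark the extremes. The EGF-only sites had the lowest median, 73.4.

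At the edge of the rule, 46 EGF-only sites ended within 100 bp of a vehicle or HRG peak, with EGF scores from 50.79 to 1995.57 and a median of 83.8. Just outside it, 13 sites had 1 EGF peak that overlapped 1 vehicle or HRG peak by 1 to 100 bp, with EGF scores from 50.35 to 347.19 and a median of 70.8. Most members lay far from this edge. The median gap to the nearest vehicle or HRG peak was 12.2 kb, 279 sites (5.04%) had a gap of at most 500 bp, and 949 (17.1%) had a gap of more than 50 kb.

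The AP-1 word was at 1141 of the 5536 EGF-only sites (20.6%, interval 19.6–21.7%), against 9.77% of all sites of the 3 SKBr3 lists. In flanking windows of the same length, 2 kb to each side of the centres, it was in 3.35% (interval 3.03–3.70%). The share was 7.42% at sites called on vehicle and EGF, 8.33% at common sites, 7.78% at HRG-only sites and 3.24% at vehicle-only sites. The EGF-only share was 13.2 points above that of the vehicle and EGF sites (interval 11.9 to 14.5). The mean GC content of the sequences was 41.7% and 41.5%. The EGF-only share was 3.15 points below that of the sites shared by EGF and HRG, at 23.8% (interval of the difference −4.74 to −1.56). This smaller difference depended on the peaks compared. With peaks of score 100 or more in the 3 lists the shares were 21.2% (interval 19.9–22.6%) and 22.3% (interval 21.0–23.7%), intervals that overlap. In the weakest of 4 score bins of the EGF list they were 19.1% (interval 17.8–20.5%) and 17.5% (interval 15.7–19.5%), which also overlap. In the other bins the EGF-only share was the lower one, with 22.2% against 24.4%, 24.2% against 26.8% and 25% against 32.4%. The AP-1 word was thus frequent at sites of both kinds, the EGF-only sites and those that both growth factors shared. Of the sites with the word, 1023 held 1 copy, 107 held 2 and 11 held 3 or more.

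The ERRE word was at 310 EGF-only sites (5.60%, interval 5.02–6.24%), against 6.00% of all sites and 0.325% of the flanking windows. Compared with the EGF and HRG sites (5.73%), the difference was −0.13 points (interval −1.02 to 0.75). The ERRE share of the vehicle and EGF sites was higher, at 8.27%, a difference of −2.67 points (interval −3.64 to −1.71), and so was that of the common sites, at 8.49%. The vehicle and HRG sites, at 4.81%, the vehicle-only sites, at 4.80%, and the HRG-only sites, at 3.39%, had lower shares. The EGF-only share was above these by 0.79 (interval −0.47 to 1.90), 0.80 (interval 0.06 to 1.58) and 2.21 points (interval 1.55 to 2.91). The shorter ERRE core, AAGGTCA, which lies within the ERRE word, was at 24.2% of the EGF-only sites and in 3.85% of their flanks. The ERRE and its core therefore marked the centres of the EGF-only sites over their flanks, and the ERRE word was less frequent there than at the vehicle and EGF and the common sites.

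Both words were present together at 44 sites (0.795%), with centres 5 to 155 bp apart and a median of 40 bp. The ERRE word was at 3.86% of the sites with an AP-1 word (interval 2.89–5.14%) and at 6.05% of those without (interval 5.38–6.80%). At 4129 sites (74.6%) neither word was found, and at 3315 (59.9%) neither AP-1 nor the ERRE core. No match says only that these letters were not in the window.

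**Figure D2:**
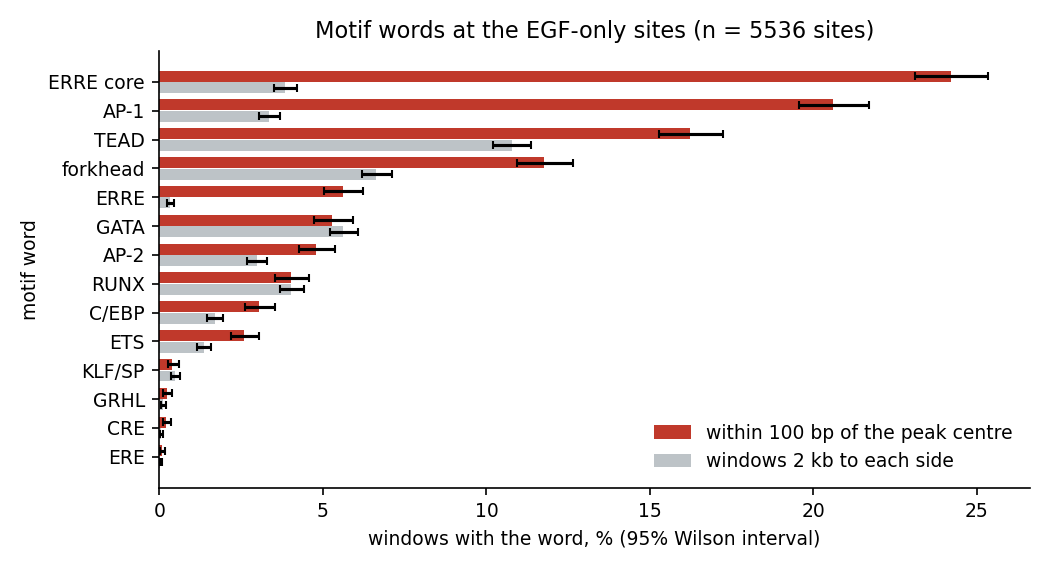
Share of the 5536 EGF-only sites with each of 14 motif words within 100 bp of the peak centre (red) and in windows 2 kb to each side (grey), with 95% Wilson intervals. The ERRE core (24.2%), AP-1 (20.6%) and the ERRE (5.60%) stood furthest above their flanks in proportion among the words found at more than 5% of sites.

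Other words were closer to their flanks. The forkhead words TGTTTAC and TGTTTGC, sites of FOXA1 and its relatives, were at 11.8% of the EGF-only sites and 6.64% of the flanks. The TEAD word GGAATG, bound by the partners of YAP, was at 16.2% against 10.8%, and the AP-2 word GCCNNNGGC at 4.79% against 2.97%. The GATA words AGATAAG and AGATAAC were at 5.29% against 5.63%, and the RUNX word TGTGGTT at 4.03% in both. The palindromic oestrogen response element was at 4 sites (0.0723%), and the cyclic AMP response element TGACGTCA at 11 (0.199%).

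Both words were concentrated at the peak centre. The AP-1 word occurred in 21.0% of EGF-only sites at a distance of 0 to 100 bp from the centre, in 11.1% at 100 to 200 bp, in 5.06% at 400 to 500 bp and in 3.36% at 900 to 1000 bp, near the share in the flanks. At the vehicle and EGF sites the same bins held 7.56%, 5.94%, 4.32% and 2.93%. The ERRE word fell from 5.71% to 0.271% of EGF-only sites over the same range.

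**Figure D3:**
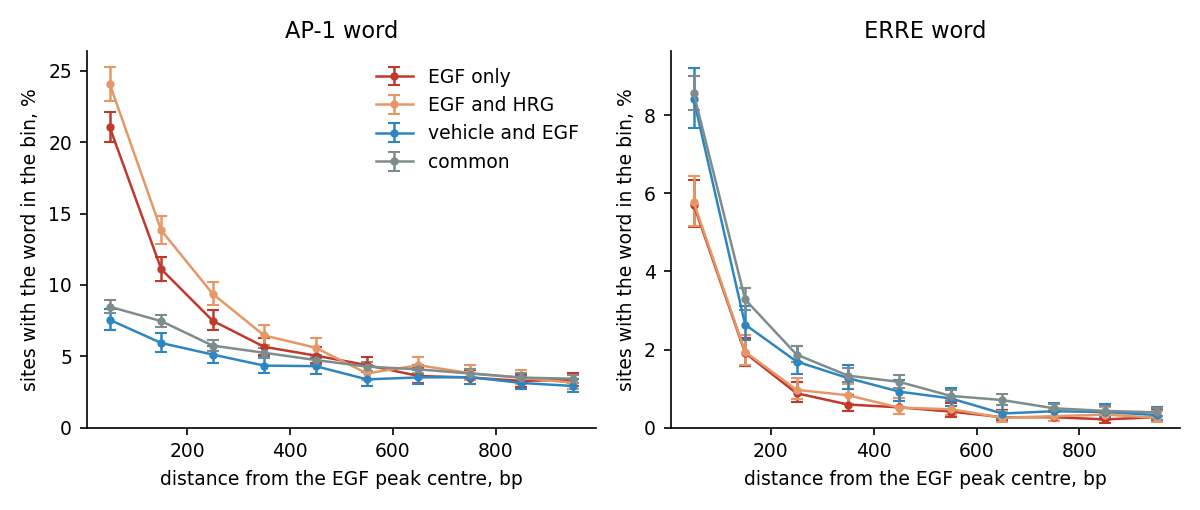
Share of sites with the AP-1 word (left) and the ERRE word (right) in bins of 100 bp of distance from the centre of the EGF peak, with 95% Wilson intervals. The AP-1 share of the EGF-only sites starts at 21.0% and ends at 3.36%, and the ERRE share starts at 5.71%, below those of the vehicle and EGF and the common sites.

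The AP-1 share of the EGF-only sites was not tied to the strongest peaks. It was 19.1% in the weakest score bin of the EGF list (interval 17.8–20.5%), 22.2% in the next, 24.2% in the third and 25% in the strongest, where only 36 sites were left (interval 13.8–41.1%). At the vehicle and EGF sites the shares were 5.69%, 6.94%, 10.4% and 12.7%. In the first 3 bins the intervals of these classes did not overlap. The ERRE share of the EGF-only sites ran the other way, with 6.44%, 5.04% and 2.85% in the first 3 bins and 0 of 36 sites in the strongest, which allows a share of up to 8.33%.

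**Figure D4:**
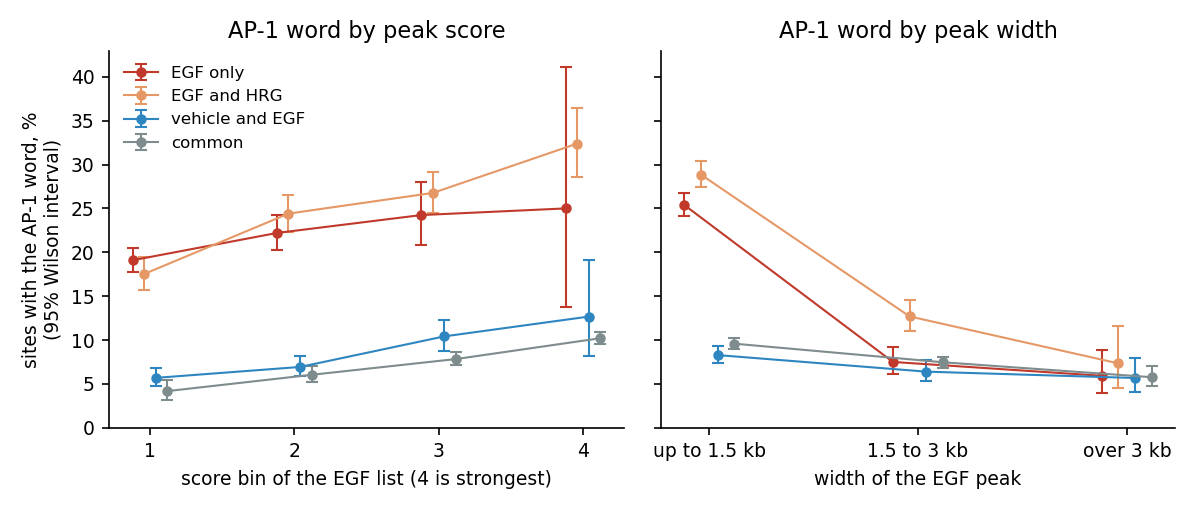
Share of sites with the AP-1 word within 100 bp of the centre, by score bin of the EGF list (left) and by width of the EGF peak (right), for the classes of sites in the EGF list, with 95% Wilson intervals. The EGF-only sites were above the vehicle and EGF sites in the first 3 score bins, and up to a width of 1.5 kb, at 25.4% against 8.29%.

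The AP-1 share fell with the width of the peak. The 4086 sites of at most 1.5 kb held the AP-1 word near the centre in 25.4% (interval 24.1–26.8%) and the ERRE word in 7.39%. The 1079 sites of 1.5 to 3 kb held it in 7.51%, and the 371 wider ones in 5.93%, both close to the shares of vehicle and EGF sites of the same widths, 6.40% and 5.68%. The centre of a wide peak need not be its point of strongest binding, so words were also counted over whole peaks. Per 10 kb of peak there were 5.25 AP-1 words at EGF-only sites of at most 1.5 kb and 1.80 in equally wide flanks. The densities at EGF-only sites were 3.93 (flanks 1.69) for widths of 1.5 to 3 kb and 2.30 (flanks 1.68) above 3 kb. The vehicle and EGF sites had 2.33, 2.68 and 2.25 words per 10 kb in the same order of widths. The fall was not particular to the EGF-only sites, since the EGF and HRG sites held the word near the centre in 28.9%, 12.7% and 7.34%, with 5.58, 5.15 and 2.93 words per 10 kb. Counted over the whole peak, 1883 of the narrow EGF-only sites (46.1%) held an AP-1 word. At equally narrow sites the share was 24.3% for vehicle and EGF and 50.6% for EGF and HRG.

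Chromosome 7 stood apart. It held 536 EGF-only sites (9.68% of them), and 25.4% of its EGF peaks were EGF-only. Their median width was 1949 bp, against 1163 bp on the other chromosomes, and their mean GC content was 37.7% against 42.1%. The AP-1 word was at 40 of them (7.46%, interval 5.53–10.0%), against 22.02% on the other chromosomes (interval 20.9–23.2%), and the ERRE word at 10 (1.87%) against 6.00%. Among sites of at most 1.5 kb the AP-1 share was 12.4% on chromosome 7 (161 sites, interval 8.19–18.4%) and 25.9% elsewhere. The parts of width and GC content in this difference were not tested. Wide sites of the vehicle and EGF class lay often on this chromosome too. Of sites wider than 3 kb, it held 40.4% of the EGF-only and 31.9% of the vehicle and EGF ones. Of those of 1.5 to 3 kb it held 20.9% and 21.2%. The AP-1 share of its vehicle and EGF sites was 5.16%, against 7.42% of that class on all chromosomes. On each of the 22 autosomes and chromosome X, the AP-1 share of EGF-only sites was above those of the vehicle and EGF, the common and the vehicle-only sites. It was above that of the EGF and HRG sites on 9 of these 23 chromosomes.

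The other 5 lists took no part in choosing the sites. A pSKBr3 peak overlapped 222 EGF-only sites (4.01%, interval 3.52–4.56%), against 33.8% of all SKBr3 sites. In windows of the same width shifted by 50 kb to either side of the EGF-only sites, the share was 3.26% (interval 2.95–3.61%). The pSKBr3 share of the EGF-only sites depended on the rule for sharing. It was 9.35% with peaks of score 100 or more in the 3 SKBr3 lists, and 8.99% when an overlap of 50% of both peaks was required for sharing. An LRSKBr3 peak overlapped 1027 EGF-only sites (18.6%, interval 17.5–19.6%), against 54.4% of all sites and 5.74% of the shifted windows. With peaks of score 100 or more in the SKBr3 lists the LRSKBr3 share of the EGF-only sites was 31.8%. The EGF-only sites were thus called in LRSKBr3 cells more often than their surroundings, and less often than any other class. The closest class was the vehicle-only sites, at 23.7%, a difference of −5.14 points (interval −6.50 to −3.77). The LRSKBr3 share of the HRG-only sites was 39.9%. A pSKBr3 peak was at 8.68% of the vehicle-only and 18.6% of the HRG-only sites. The ranking of the classes was not repeated with peaks of score 100 or more.

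The LRSKBr3 share was 51.0% at the EGF and HRG sites and 54.5% at the vehicle and EGF sites. The differences of −32.5 (interval −34.2 to −30.7) and −36.0 points (interval −37.7 to −34.3) had the same sign on each of 23 chromosomes. At matched score, in the weakest score bin of the EGF list, the shares were 18.1% for EGF-only sites, 55.6% for EGF and HRG sites and 47.8% for vehicle and EGF sites. In the third bin they were 18.4%, 45.5% and 63.6%. In the strongest bin, with 36 EGF-only sites, the EGF-only share of 47.2% (interval 31.99–63.0%) was near the 48.9% of the EGF and HRG sites, and that of the vehicle and EGF sites was 73.2%.

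The BT-474 lists differed in how many EGF-only sites they held. A peak of the BT-474 vehicle list overlapped 19.3% of them (against 33.7% of all sites), one of the BT-474 EGF list 15.0% (against 25.8%) and one of the BT-474 HRG list 30.6% (against 37.3%), with 5.68%, 4.62% and 7.26% in the shifted windows. The BT-474 EGF share was 23.3% with peaks of score 100 or more in the SKBr3 lists. The BT-474 lists held 32259, 26832 and 41271 peaks, the same order as these shares, and the part of list size in them was not tested. At the vehicle-only sites the shares were 20.1%, 14.7% and 21.8%. The BT-474 EGF list was not the one that held most EGF-only sites. Some BT-474 list held a peak at 1870 EGF-only sites (33.8%), against 42.5% of all sites, 27.5% of the vehicle-only and 17.0% of the HRG-only sites. The HRG list alone held 641 (11.6%, against 6.68% of all sites), close to its 11.7% of the EGF and HRG sites. The vehicle list alone held 1.82% (against 3.69%), the EGF list alone 58 (1.05%, against 0.836%), the vehicle and HRG lists 295 (5.33%, against 6.35%) and the 3 BT-474 lists 652 (11.8%, against 22.9%). The HRG-only sites had fewer BT-474 HRG peaks (12.7%) than the EGF-only sites, a difference of 17.9 points (interval 16.6 to 19.2).

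**Figure D5:**
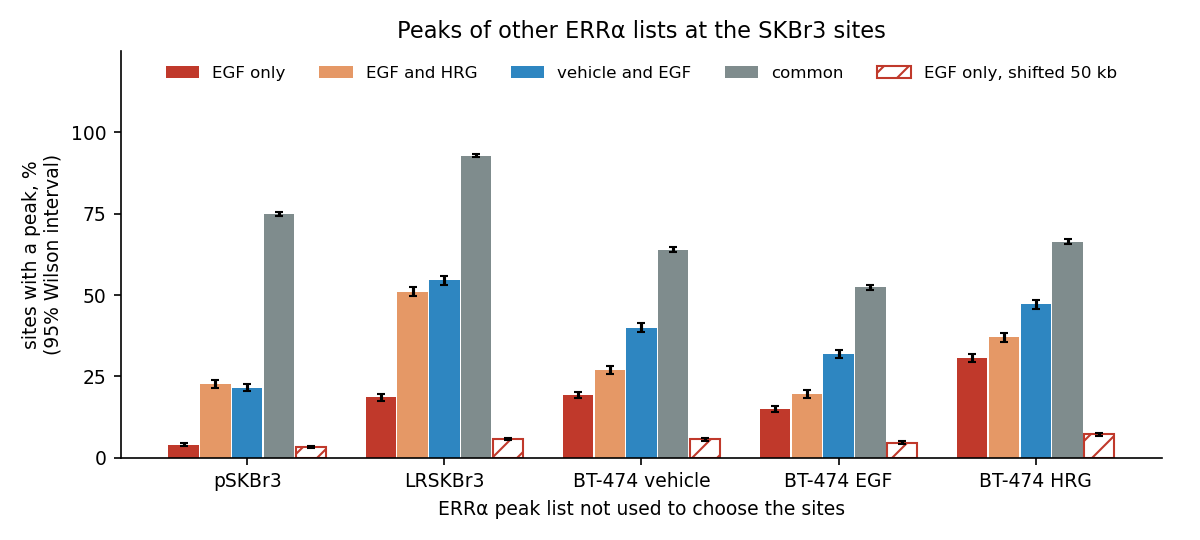
Share of the SKBr3 sites with a peak in each of the 5 ERRα lists that did not choose them, by class of site, and for windows of the same width 50 kb to either side of the EGF-only sites (hatched), with 95% Wilson intervals. The EGF-only bars are the lowest of the 4 classes shown, those called in the EGF list, in every list. They are highest, at 30.6%, in BT-474 cells treated with HRG. The HRG-only sites, not shown, were lower in the BT-474 vehicle (12.3%), EGF (6.58%) and HRG lists (12.7%).

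None of the 5 lists held a peak at 3042 EGF-only sites (54.9%), against 32.5% of all sites. Among the other classes called in a single SKBr3 list it was 57.95% (vehicle-only) and 50.5% (HRG-only), and at the EGF and HRG sites 29.4%. All 5 did at 38 (0.686%), against 13.6% of all sites. EGF-only sites with and without the AP-1 word differed in some of these lists. An LRSKBr3 peak was at 11.7% of the EGF-only sites with the word and 20.3% of those without, a difference of −8.57 points (interval −10.7 to −6.26). For the pSKBr3 list the shares were 2.19% and 4.48%, a difference of −2.29 points (interval −3.25 to −1.12). For the BT-474 EGF list they were 12.9% and 15.6%, a difference of −2.73 points (interval −4.85 to −0.41), and for the BT-474 vehicle list 17.3% and 19.8%, with an interval of −4.91 to 0.07 points. For the BT-474 HRG list they were 32.3% and 30.1%, and the interval of the difference, −0.88 to 5.18 points, includes 0. The lower LRSKBr3 share of sites with the word was not particular to the EGF-only sites, since it was 33.6% against 56.5% at the EGF and HRG sites and 39.7% against 55.7% at the vehicle and EGF sites. Of the EGF-only sites, 883 (15.95%) had an LRSKBr3 and no pSKBr3 peak, against 22.8% of all sites. These held the AP-1 word in 13.7% (interval 11.6–16.1%) and the ERRE word in 11.4%, against 5.60% of all EGF-only sites. The higher ERRE share was not particular to them. It was 10.3% at the 78 EGF-only sites with a pSKBr3 and no LRSKBr3 peak, and 9.72% at those with both. At those in the 3 BT-474 lists it was 9.66%, and at those in none of the 5 lists 3.48%.

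The 20 strongest EGF-only sites were mostly wide. They scored at least 439.35, and 13 of them were wider than 3 kb, against 371 of all 5536. On chromosome 20 lay 7 of them, against 2.91% of all EGF-only sites. The AP-1 word was at 3 of them (against 20.6% of all EGF-only sites) and the ERRE word at none (against 5.60%). None lay at a promoter (against 3.41%). With 20 sites, these counts are too small to be set apart from those shares. LRSKBr3 peaks were at 14 of them (against 18.6% of all EGF-only sites), pSKBr3 peaks at 9 (against 4.01%) and BT-474 peaks at 14 (against 33.8%).

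The strongest of all, with a score of 2093.93, was a site of 6513 bp in an intron of BCAS4 (chr20:49439538-49446050), a gene of a region often amplified in breast cancer. It was called in each of the other 5 lists, in the BT-474 HRG list at percentile 96.9 of the scores. The next, with a score of 1995.57, lay within MMP9 (chr20:44641253-44645482), which encodes a secreted gelatinase, 5.82 kb from its start. An HRG peak ended 51 bp from the MMP9 site, so a slightly wider rule would have called it shared with HRG. It was also called in each of the other 5 lists, at percentile 98.5 in the BT-474 HRG list and 14.5 in the BT-474 vehicle list. The following sites, near TBC1D16 (1588.21), HMGB1P1 (1291.78) and CSMD3 (1076.88), were between 8013 and 28522 bp wide.

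The site near NRP1, a co-receptor for semaphorins and VEGF, scored 1038.89. It was 1552 bp wide, lay 29.4 kb from the gene's start and was 36.3 kb from the nearest vehicle or HRG peak. It had a peak in each BT-474 list, at percentiles 83.4 (vehicle), 88.1 (EGF) and 94.0 (HRG), and none in pSKBr3 or LRSKBr3 cells. The site nearest to REEP3, 186 kb from its start and shown above with 4 AP-1 words in 201 bases, scored 507.37 and was called elsewhere only in BT-474 cells treated with HRG. A site 32.5 kb from JAG1, a Notch ligand, scored 660.41, and one in an intron of RARB, a retinoic acid receptor, scored 446.21. Outside the SKBr3 lists, both had a peak in LRSKBr3 cells alone. A site 77.4 kb from PHLDA1, with a score of 464.83, had none.

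Of the strongest sites with an LRSKBr3 and no pSKBr3 peak, those near CSMD3, JAG1, BCL2L10, CTNNBL1 and RARB were at percentiles 36.1, 40.3, 4.29, 37.4 and 40.7 of the LRSKBr3 scores. None of these 5 sites was strong in that list. Sites that were called in BT-474 cells on EGF and not on vehicle or HRG numbered 58. The strongest were nearest to GRM8 (343.63, 908 kb from its start), COL21A1 (203.98), ZFP91 (201.25), CTNNB1 (162.06, 153 kb from its start) and GTSF1 (153.84). Their percentiles among the BT-474 EGF scores ran from 1.72 (CTNNB1) to 51.1 (ZFP91). None of the 5 held either word, as was so for 74.6% of all EGF-only sites.

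The 10 strongest sites with both words scored between 105.98 (UGT2B11) and 184.08 (SLC9A9). In 201 bases each held a single copy of either word. Outside the SKBr3 lists, 5 of them, near SLC9A9, TPST2, SERP2, DNAJB4 and SLC1A2, had no peak at all. That was so for 54.9% of all EGF-only sites. The sites near MEF2A and DUT had BT-474 HRG peaks alone, at percentiles 1.73 and 27.0.

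EGF-only sites lay mostly away from promoters. Only 189 (3.41%, interval 2.97–3.93%) had their centre within 1 kb of the start of a protein-coding transcript, against 12.0% of all SKBr3 sites, 9.22% of the EGF and HRG sites and 4.20% of the vehicle and EGF sites. Introns held 2394 (43.2%, against 41.7% of all sites), exons 105 (1.90%, against 2.57%) and intergenic sequence 2848 (51.4%, against 43.7%). The median distance to a start was 51.3 kb, against 27.8 kb for all sites and 54.0 kb for the vehicle and EGF sites. More than 100 kb away were 1939 sites (35.03%), against 24.4% of all sites. The AP-1 share was 19.0% at the promoters (interval 14.1–25.2%), 20.4% in introns and 21.0% in intergenic sequence. At promoters of the EGF and HRG sites it was 11.8% (interval 9.20–15.1%), with a mean GC content of 57.3% against 46.7% at the EGF-only promoters. At promoters of the vehicle and EGF sites the AP-1 share was 5.50% and at those of the common sites 3.34%.

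A protein-coding start within 20 kb of an EGF-only site was found for 1727 of 19807 genes (8.72%). For 364 of them (1.84%) no vehicle or HRG peak lay within 20 kb of the start. The genes of the signalling and metabolic lists are given beside these shares, and no enrichment was tested.

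Among the receptors and ligands of the ERBB family, 2 of 15 genes had an EGF-only site in range. EREG, which encodes the EGFR ligand epiregulin, had a site 7.08 kb from its start in an intron (score 61.56). NRG3, a ligand of ERBB4, had 2, the stronger with a score of 64.10 and an AP-1 word, and was among the 364 genes without a vehicle or HRG peak. That site was called in all of the other 5 lists, in the BT-474 lists at percentiles of 98.3 to 98.9. Of the RAS–ERK cascade, 3 of 26 genes had one. These were CBLB, a ubiquitin ligase of activated receptors (204.42), MAP2K1, which encodes the kinase MEK1 (58.67, in an intron of TIPIN 16.7 kb away), and KSR1, a scaffold of the cascade (57.17). CBLB and MAP2K1 had no vehicle or HRG peak in range.

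The feedback inhibitors of this signalling had sites at 6 of 26 genes. LRIG3, a transmembrane protein of the LRIG family, had the strongest (93.55), 2.50 kb from its start and with an AP-1 word near its centre. It was called in LRSKBr3 cells and in the 3 BT-474 lists. PHLDA1 (92.86), the MAP kinase phosphatase gene DUSP1 (74.63) and SOCS5 (74.26) followed, and the SOCS5 site held an ERRE word. Of the AP-1 genes themselves, 1 of 17 had an EGF-only site, which was FOS, with a site of 63.93 at 10.1 kb. Of the other immediate early genes, 1 of 24 had one, which was CCN1, the gene of a matrix protein (115.65). Neither held an AP-1 word near its centre.

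Matrix proteases and their regulators had EGF-only sites at 7 of 27 genes. After MMP9 came TIMP2, an inhibitor of metalloproteases, with a site of 175.40 at 0.93 kb from its start. PLAU, the urokinase gene, had a site of 140.85 at 16.0 kb and PLAT, the tissue plasminogen activator gene, one of 132.69 at 4.21 kb. TIMP2, PLAT and ADAM9 had no vehicle or HRG peak in range, and ADAM9 is named for that alone. The PLAU site (chr10:75650631-75655209) lay within 100 bp of another EGF-only site (749.68), which lay nearest to CAMK2G. Both were called in pSKBr3 and LRSKBr3 cells. Integrins had sites at 4 of 26 genes, with scores from 51.56 (ITGB5) to 94.43 (ITGB6), and laminins at 1 of 12 (LAMB3, 74.36).

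Transcription factors of the luminal breast lineage had sites at 6 of 20 genes, the strongest at GRHL1 (134.92), ELF3 (103.16), EHF (92.03) and PGR (87.76). The EHF site, in an intron 2.33 kb from the start, held the ERRE word and was called in pSKBr3 cells and in BT-474 cells on HRG. None of these 6 genes was without a vehicle or HRG peak in range, against 364 of the 1727 genes with an EGF-only site. Oestrogen-responsive genes had sites at 2 of 16, NRIP1, a corepressor of nuclear receptors (54.37), and SLC7A2, an amino acid transporter (79.70), and both sites held an AP-1 word.

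Genes of energy metabolism, the classical targets of ERRα, gave few EGF-only sites in the respiratory chain. Of 91 genes of oxidative phosphorylation, 79 had an EGF peak of some class within 20 kb of their start, against 10332 of all 19807. An EGF-only site was in range of 2 of the 91 (2.20%), against 8.72% of all genes. These were the ATP synthase genes ATP5MC1 (161.63) and ATP5F1C (53.37). Of 19 genes of the TCA cycle, each had an EGF peak in range and 4 an EGF-only site (21.1%, against 8.72% of all genes). The strongest was at CS, citrate synthase (194.22, at 12.8 kb and nearer to the start of ANKRD52), followed by MDH2 (97.30), SUCLG2 (67.14) and DLD (53.51). Each of these 6 genes also had a vehicle or HRG peak in range, as had all but 364 of the 1727 genes with an EGF-only site.

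The genes with most EGF-only sites in their body or within 20 kb of a start were long. GRM8, a glutamate receptor gene, had 13 over 814 kb, KCND2, a potassium channel gene, 12 over 477 kb, and PDE1C, RUNX1, GRM7, DGKB, ASAP1, CLSTN2, LPP and ALK between 7 and 11. GRM8, KCND2, PDE1C and DGKB lie on chromosome 7. The AP-1 word was at none of the sites of GRM8 and KCND2, at 2 of 11 of RUNX1 and at 4 of 7 of ALK. These genes were not free of other peaks. The span of GRM8 also held 17 vehicle and 10 HRG peaks, and that of GRM7 144 and 6. Over all EGF-only sites, 717 (13.0%) had another within 10 kb. The longest runs held 5 each, and KCND2 was the nearest gene of both. The run at chr7:119020138-119067462 lay outside that gene.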

How the data were processed

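The 8 ERRα ChIP-seq peak lists described above were used. Per the study's methods, the authors aligned reads to hg19 (GRCh37) with BWA 0.5.9 and used MACS with a cutoff of P = 1e-05. Their processing notes also name SAMtools 0.1.18. The deposited score of a peak is 10 times the negative log10 of its P value and was compared within a list only. Peaks of the 3 SKBr3 lists were merged at an overlap of 1 bp. A site was represented by its strongest EGF peak, otherwise by its HRG or vehicle peak. Words were counted within 100 bp of its centre, and genes were those of GENCODE 44 lifted to GRCh37. Other lists matched by an overlap of 1 bp.

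The members and gene lists were chosen with earlier results of these data known. The sites named are the 20 strongest, the 10 strongest with both words, the 5 strongest with an LRSKBr3 and no pSKBr3 peak, and the 5 strongest with a BT-474 EGF and no other BT-474 peak. The genes named are at most 4 per list by score and the 10 with most sites. Counts and shares were given with no test, because each condition has 1 list. Merging, word search and distances were tested on simulated data. Scripts ran in Python 3.11.15 with pysam 0.24.0, pandas 2.3.3, numpy 2.4.6, matplotlib 3.10.9 and scipy 1.17.1, beside samtools 1.23.1. The alternatives concerned the score threshold, the overlap, the window, distances to starts, chromosome 7 and peak width.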

Additional observations from a re-analysis of the deposited data

How the results depend on the processing

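No paired analysis was possible because the lists pool the replicates and no result comes from a test. With peaks of score 100 or more in the 3 SKBr3 lists, 3413 sites were EGF-only, with ERRE in 6.27%, LRSKBr3 peaks at 31.8%, pSKBr3 peaks at 9.35%, BT-474 EGF peaks at 23.3% and promoters at 2.90%. The AP-1 shares were then 21.2% for EGF-only, 22.3% for EGF and HRG and 7.33% for vehicle and EGF peaks. With that threshold on the EGF peak alone, 1499 sites remained, with AP-1 in 22.7%, ERRE in 4.003%, BT-474 EGF peaks at 17.5% and promoters at 2.60%. When an overlap of 50% of both peaks was required for sharing, AP-1 was in 18.7% of 6633 sites, with LRSKBr3 peaks at 25.3%, pSKBr3 peaks at 8.99%, BT-474 EGF peaks at 17.2% and promoters at 4.10%. Windows of 50 bp gave AP-1 in 11.7% and ERRE in 3.29%, and windows of 250 bp gave 33.2% and 7.93%. With promoters drawn at 5 kb the share was 11.2%. Of genes with an EGF-only site and no vehicle or HRG peak, 98 had a site of score 100 or more. Added after seeing the data, leaving out chromosome 7 gave AP-1 in 22.02%, and keeping peaks of at most 1.5 kb gave AP-1 in 25.4%, ERRE in 7.39% and pSKBr3 peaks at 3.06%. The other 23 of 49 values stayed within the interval of the reported share, or within 1.5 times the reported count, among them those with a gap of 500 bp counted as shared. The share of pSKBr3 and LRSKBr3 peaks thus depended on the rule for sharing, and each AP-1 share in windows of 100 bp lay above 18%.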

Other observations

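The EGF-only sites resembled the vehicle and EGF sites in base composition and forkhead words. Their mean GC content of 41.7% was near those of the vehicle and EGF (41.5%) and vehicle-only sites (40.8%) and below those of the EGF and HRG (48.7%) and HRG-only sites (51.6%). The forkhead words, at 11.8% of EGF-only sites, exceeded their share at the EGF and HRG sites by 2.83 points (interval 1.67 to 3.99) and that at the vehicle and EGF sites by 1.04 points (interval −0.16 to 2.23). In 3 bins of rising GC content of the EGF peaks their shares were 12.8%, 11.4% and 8.17% at the EGF-only sites, 12.8%, 9.81% and 6.18% at the EGF and HRG sites and 11.5%, 10.5% and 7.56% at the vehicle and EGF sites. For the AP-2 word the difference from the EGF and HRG sites was −5.05 points (interval −6.06 to −4.06). In the bin of highest GC content its shares were 13.2% at the EGF-only and 16.0% at the EGF and HRG sites. The AP-1 share of the EGF-only sites was 16.9%, 24.6% and 25.4% in the 3 bins of rising GC content, against 6.32%, 8.88% and 8.44% at the vehicle and EGF sites and 22.9%, 27.5% and 21.4% at the EGF and HRG sites.

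The bases next to the AP-1 word were also counted. Of 1277 AP-1 words within 100 bp of the centres of EGF-only sites, 13.5% (interval 11.7–15.5%) were preceded by A and followed by T. Beyond 500 bp from the centres the share was 7.84% (interval 6.36–9.63%), and near the centres of the EGF and HRG sites it was 8.62% (interval 7.23–10.2%). Near those of the vehicle and EGF sites it was 9.77% (interval 7.23–13.1%), an interval that overlaps that of the EGF-only sites.

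EGF-only sites more than 50 kb from any vehicle or HRG peak held the AP-1 word in 26.0% (interval 23.3–28.9%), the ERRE word in 8.75%, BT-474 HRG peaks at 40.3% and LRSKBr3 peaks at 16.8%. Those at 10 to 50 kb held them in 19.9%, 5.62%, 28.3% and 18.7%, with a nearly equal median EGF score of 72.0 against 74.1.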
